A study of Homo sapiens with 14 samples.

Results

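The lamin and LINC complex genes were examined in peak lists of phosphorylated JUN (p-JUN, p-Jun in the labels), H3K4me3, H3K27me3 and H3K27ac from LX-2, a line of immortalised stellate cells of the human liver. The 10 genes were LMNA, LMNB1, LMNB2, SUN1, SUN2, SYNE1, SYNE2, EMD, TMPO and LBR, of 20136 protein-coding genes in the annotation. For each gene, every peak that overlapped the gene body or the 10 kb on either side was taken from all 14 lists. All cells were wild type and had been cultured on soft or stiff matrix for 2 days, and the study asked how matrix stiffness alters the chromatin of hepatic stellate cells. CUT&Tag, in which an antibody guides a transposase to its target and the released fragments are sequenced, gave 2 libraries per matrix for p-JUN, H3K4me3 and H3K27me3. H3K27ac had 1 merged list per matrix and therefore no replicate error. The p-JUN libraries labelled stiff carried TCP in their titles, the study's abbreviation for culture plastic, where the stiff histone libraries carried the code of the stiff gel. Whether the cells of these p-JUN libraries grew on gel or plastic cannot be told from the labels. All values come from 1 cell line. The study's methods call the replicates of its sequencing experiments biological, and the labels do not say which libraries were separate cultures. The p-values rest on the spread between these libraries alone, pooled in part over all regions of a mark. In these bulk libraries, less signal per cell and signal from fewer cells cannot be told apart.

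The nuclear lamina is a meshwork of lamin filaments under the inner nuclear membrane. LMNA encodes the A-type lamins A and C, which stiffen the nucleus and are known to scale with tissue stiffness, and LMNB1 and LMNB2 encode the B-type lamins. SUN-domain proteins in the inner membrane (SUN1, SUN2) bind nesprins in the outer membrane (SYNE1, SYNE2), and together they form the LINC complex, which couples the cytoskeleton to the lamina. Emerin (EMD), the lamin B receptor (LBR) and most lamina-associated polypeptides of TMPO are inner membrane proteins that tie chromatin to the lamina, while the TMPO product LAP2alpha lies in the nucleoplasm. JUN is a subunit of the AP-1 transcription factor, which binds TGACTCA. H3K4me3 marks start sites, H3K27ac marks active start sites and enhancers, and H3K27me3 marks silenced chromatin.

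A few p-JUN sequences are printed here because they lay under the p-JUN region of highest −log10 q, at LMNA, under AP-1 motifs of LMNA, SYNE1 and LBR, and under the SYNE1 region whose fragments differed most between matrices. They were read from GRCh37, plus strand, around the summit, and capitals mark TGACTCA or its reverse complement TGAGTCA. The LMNA start site sequence lies at chr1:156084067-156084204, upstream of the canonical start. The LMNA intron sequence lies at chr1:156093565-156093665, and the sequence at an internal LMNA start at chr1:156096260-156096360. The SYNE1 intron sequences lie at chr6:152616627-152616727 and, for the repeat, at chr6:152812290-152812390. The LBR intron sequence lies at chr1:225613138-225613239.
LMNA start site: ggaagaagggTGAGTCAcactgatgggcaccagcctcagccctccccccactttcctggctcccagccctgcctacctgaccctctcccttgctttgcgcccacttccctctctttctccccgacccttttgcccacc
LMNA intron: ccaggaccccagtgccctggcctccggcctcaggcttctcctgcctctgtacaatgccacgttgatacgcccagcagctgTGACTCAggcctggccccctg
LMNA internal start: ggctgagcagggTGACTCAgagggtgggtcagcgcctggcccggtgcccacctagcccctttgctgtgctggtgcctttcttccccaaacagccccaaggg
SYNE1 intron: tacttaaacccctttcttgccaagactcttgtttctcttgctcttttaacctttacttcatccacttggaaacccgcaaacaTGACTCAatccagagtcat
SYNE1 repeat: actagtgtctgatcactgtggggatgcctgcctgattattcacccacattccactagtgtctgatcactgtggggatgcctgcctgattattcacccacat
LBR intron: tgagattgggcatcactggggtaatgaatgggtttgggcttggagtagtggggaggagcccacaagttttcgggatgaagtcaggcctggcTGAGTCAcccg
In the LMNA start site sequence the motif lay 74 bp upstream of the summit and thus outside the 50 bp searched on each side. The SYNE1 repeat held no motif, and within its region a unit of 52 bp recurred 4.1 times between 152812215 and 152812427.

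The p-JUN lists held 48171 to 54175 peaks, the H3K4me3 lists 18099 to 18860, the H3K27me3 lists 6976 to 19845, and the H3K27ac lists 18242 on the soft and 13325 on the stiff matrix. Fragments at the summit were recovered from the deposited fold and −log10 p. Their median was 60 to 64 per p-JUN list, 120 and 141 on the soft and 151 and 207 on the stiff matrix for H3K4me3, and 27 and 26 for H3K27ac. Of the stellate and myofibroblast markers, 5 of 8 (ACTA2, COL1A1, PDGFRB, VIM, TIMP1) carried H3K4me3 within 1 kb of a start site in all 4 libraries, while COL1A2, DES and LRAT carried none. None of the 4 hepatocyte, 3 leukocyte or 2 endothelial markers had it, whereas of the 2 cholangiocyte markers EPCAM had it in all 4 libraries and KRT19 in none.

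None of the 10 genes had an H3K27me3 peak in any of the 4 lists. The same held for 72.5% of protein-coding genes. All other marks were found at most of the genes: p-JUN peaks lay at all 10 in at least 2 libraries, H3K4me3 at all 10 in every library, and H3K27ac at 9, with LBR the exception. The p-JUN peaks over the 10 genes summed to 43 and 38 in the soft and 35 and 44 in the stiff libraries. The soft and stiff sums thus overlapped, and the log2 ratio of stiff to soft was −0.04, with an SD of 0.22 over the 4 pairs of libraries, beside 0.01 over all protein-coding genes. H3K4me3 peaks summed to 30 and 31 on the soft and 31 and 31 on the stiff matrix, a log2 ratio of 0.02. H3K27ac peaks summed to 21 on the soft and 15 on the stiff matrix, a log2 ratio of −0.49, beside −0.45 over all protein-coding genes.

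**Figure D1:**
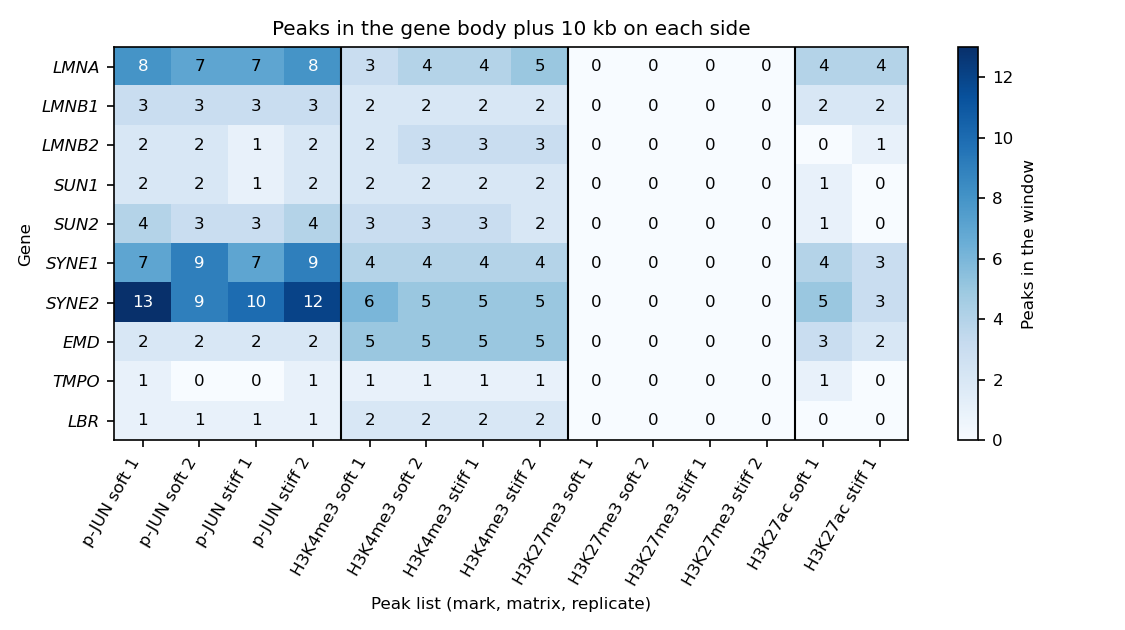
Number of peaks in the window of each gene (rows) in each of the 14 lists (columns: mark, matrix, replicate); shade and digits give the count. H3K27me3 is 0 throughout, SYNE2 holds 9 to 13 p-JUN peaks, and at no gene do the p-JUN or H3K4me3 counts of the matrices separate.

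Per length, p-JUN peaks were densest at LMNA, with a mean of 9.68 peaks per 100 kb of window, and at EMD, with 8.97. The EMD value stood on 2 peaks per library in a window of 22.3 kb, of which the gene body was 2.3 kb. SUN2 followed with 4.33, LMNB1 with 3.73 and LMNB2 with 3.55 peaks per 100 kb. The large nesprin genes SYNE2 and SYNE1 held 2.27 and 1.49 peaks per 100 kb, LBR 2.11, SUN1 1.75 and TMPO 0.912. For p-JUN, no gene had peak counts that were higher in both stiff than in both soft libraries or the reverse, which 4.95% and 3.95% of protein-coding genes with a p-JUN peak did. The same was true for H3K4me3, beside 2.14% and 2.03% of genes. With 2 libraries against 2, an exact permutation test of a single count cannot go below p = 0.33.

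Merging the peaks of all libraries of a mark where they shared at least 1 bp gave 51 p-JUN regions, 32 H3K4me3 regions and 24 H3K27ac regions at the 10 genes. Of these, 31 p-JUN regions (60.8%) were shared by all 4 libraries, beside 65.8% of all 61411 regions. Of the other 20, 10 were called in 1 library, 5 in 2 and 5 in 3. These 20 were weak, with a median −log10 q of 12.3 against 49.7 for the shared 31. No p-JUN region was called in both stiff and neither soft library, a pattern of 2.75% of all regions, or in both soft and neither stiff library, 1.74% of all. By place, 28 of the 51 regions were intronic, 12 lay within 1 kb of a coding start site of the gene, 5 touched a coding exon, 1 a UTR, and 5 lay in the flanks.

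All 10 genes had a H3K4me3 region that was called in all 4 libraries within 1 kb of a coding start site, beside 61.9% of protein-coding genes. At 6 of them (LMNA, LMNB1, SUN1, SUN2, SYNE1, EMD) p-JUN was called in every library within 1 kb of a coding start, which could be another start than that with H3K4me3, as at SUN1. The same held for 57.4% of genes with such H3K4me3. SYNE2 had a p-JUN peak near a start in every library but at no single start in all 4, TMPO in 1 library of each matrix, and LMNB2 and LBR in none. H3K27ac at a start site was in both lists for LMNA, LMNB1, SYNE1 and EMD, 4 of 10 genes beside 32.6%. It was in the soft list alone for SUN1, SUN2 and TMPO, 3 of 10 beside 16.6%, and in the stiff list alone for none, beside 3.96%. LMNB2, SYNE2 and LBR had none within 1 kb, although a soft-only H3K27ac peak lay just beyond that distance at SYNE2.

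LMNA (chr1:156052364-156109872, plus strand) held the p-JUN region with the highest −log10 q of all the genes. It spanned chr1:156083357-156084595 over the canonical start, and its fold over the local background was 14.6 and 14.8 on the soft and 14.6 and 15.7 on the stiff matrix. Its −log10 q was 929, 845, 725 and 889 (here and elsewhere 4 values are soft replicates 1 and 2, then stiff replicates 1 and 2), and its mean fold exceeded that of 94.7% of shared p-JUN regions. The matrices overlapped in this fold. Inside the gene, the region at chr1:156095892-156097227, within 1 kb of internal coding starts, had folds of 5.92 and 5.95 on soft and 5.81 and 5.80 on stiff. An upstream alternative start at chr1:156076032-156076795 had p-JUN folds of 5.73, 5.99, 5.37 and 6.42. Of the 4 intronic LMNA regions called in all libraries, the one at chr1:156066513-156067086 had folds of 6.18 and 6.55 in the soft and 6.45 and 7.5 in the stiff libraries. The lowest fold was at chr1:156092543-156093678, with 2.10, 2.35, 1.85 and 2.13, a mean above only 0.0124% of shared p-JUN regions.

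**Figure D2:**
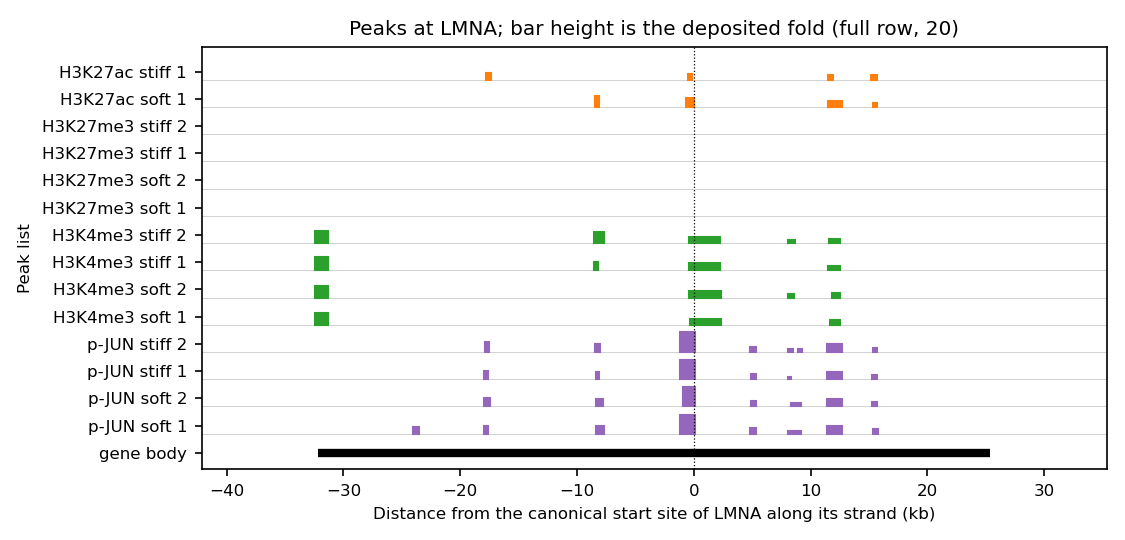
Peaks at LMNA in the 14 lists (rows), by distance in kb from its canonical start along the strand; bar height is the deposited fold, a full row standing for 20, and the black bar is the gene body. p-JUN at the start reaches a fold of 14.6 to 15.7 in all 4 libraries, and H3K27me3 rows are empty.

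H3K4me3 at LMNA was called in all libraries at 3 start regions. At the canonical start (chr1:156084099-156086825) its folds were 4.52, 5.27, 5.45 and 5.02. At the most upstream start (chr1:156052060-156053219), which also lies within 1 kb of a start of the RNA-binding protein gene MEX3A, they were 8.85, 9.15, 10.2 and 9.07. At the internal start (chr1:156095995-156097057) they were 3.70 and 3.79 in the soft and 3.36 and 3.16 in the stiff libraries. It was lower in both stiff libraries and did not pass the test (log2 difference −0.28 ± 0.09 SE, limma adjusted p = 0.44).

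The B-type lamin genes carried fewer regions. LMNB1 (chr5:126112315-126172712, plus strand) had a p-JUN region at its start, chr5:126112235-126112795, with folds of 10.1, 8.68, 8.73 and 9.59, and one over a coding exon, chr5:126147150-126147821, with folds of 8.90, 8.37, 8.74 and 7.52. The soft and stiff folds overlapped at both. A weaker region downstream of the start, chr5:126114067-126114465, had 3.19 and 4.08 on soft and 5.04 and 4.22 on stiff (log2 difference 0.31 ± 0.17, limma adjusted p = 0.62). Its strongest H3K4me3 region, chr5:126113293-126114769, had folds of 6.68 and 6.23 on soft and 7.30 and 7.43 on stiff, a log2 difference of 0.12 ± 0.09 (SE, limma adjusted p = 0.71). LMNB2 (chr19:2427636-2456957, minus strand) had no p-JUN at its own start. Its only p-JUN region in all libraries was intronic, chr19:2452753-2453337, with folds of 5.67 and 6.66 on soft and 7.16 and 7.32 on stiff (log2 difference 0.19 ± 0.13, limma adjusted p = 0.71). H3K4me3 at the LMNB2 start had folds of 9.57, 10.1, 10.2 and 10.8, and a region of similar fold at the other end of the gene covered the start of TIMM13, a mitochondrial import factor.

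Both SUN genes had p-JUN at a start. At SUN1 (chr7:856252-936072, plus strand) the region chr7:871443-872717 had folds of 9.42 and 9.32 on soft and 7.86 and 9.32 on stiff. No H3K4me3 peak overlapped it in any library; the H3K4me3 of SUN1 lay at an upstream start, chr7:856646-857355, with folds of 10.9, 11.5, 10.9 and 11.1, where no p-JUN peak was called. At SUN2 (chr22:39129295-39190148, minus strand) p-JUN and H3K4me3 coincided at the canonical start. The p-JUN region chr22:39151313-39152316 had folds of 5.09, 5.81, 5.60 and 5.89, and the H3K4me3 region chr22:39150639-39152572 had 8.48, 7.64, 8.32 and 8.36. A second SUN2 start was shared with DNAL4, a dynein light chain gene, and carried H3K4me3 in all libraries but p-JUN in only 1 soft library.

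The nesprin genes held the regions of highest p-JUN fold. At SYNE2 (chr14:64228617-64693151, plus strand) the highest lay in the upstream flank, chr14:64219248-64220021, with folds of 16.7, 18.3, 16.9 and 18.0, above 98.9% of shared regions. The downstream flank region chr14:64698809-64699663 had folds of 12.9, 12.8, 12.3 and 12.4. At SYNE1 (chr6:152442822-152958936, minus strand) the intronic region over the 52 bp repeat, chr6:152812044-152812850, had folds of 14.9 and 14.2 on soft and 15.8 and 16.6 on stiff. Another SYNE1 intron region, chr6:152616552-152616920, had folds of 11.5 and 11.3 on soft and 14.0 and 17.3 on stiff, above both soft libraries in each stiff one. A region over a coding exon, chr6:152701872-152703025, had 12.9, 12.6, 12.7 and 14.1 and overlapped H3K4me3 and H3K27ac. The canonical SYNE1 start had H3K4me3 (folds of 7.92, 8.39, 8.13 and 8.38) but neither p-JUN nor H3K27ac. Both were found instead at an internal coding start, chr6:152622828-152623637, where p-JUN folds were 7.66 and 7.85 in the soft and 5.49 and 11.2 in the stiff libraries. The latter stood on either side of the soft ones.

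**Figure D3:**
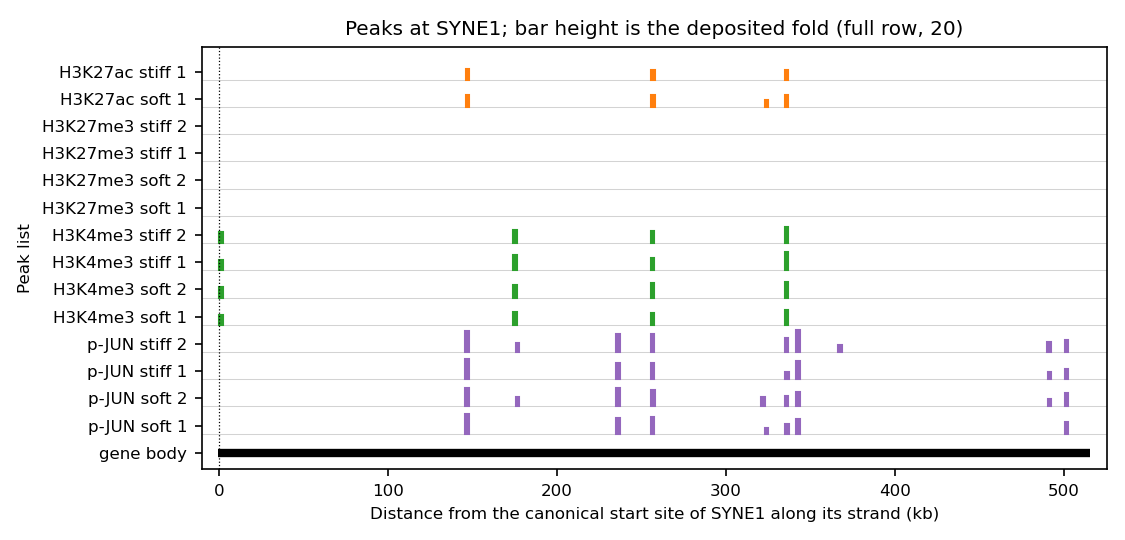
Peaks at SYNE1 in the 14 lists (rows), by distance in kb from its canonical start along the strand; bar height is the deposited fold, a full row standing for 20, and the black bar is the gene body. H3K4me3 alone marks the canonical start, and p-JUN, H3K4me3 and H3K27ac coincide at an internal coding start and over a coding exon.

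Among the inner membrane genes, EMD (chrX:153607633-153609934, plus strand) is short and its window reached the promoters of FLNA, the actin crosslinker filamin A. At the EMD start, p-JUN folds were 5.96 and 4.95 on soft and 4.69 and 6.39 on stiff. A stronger p-JUN region in its upstream flank, chrX:153597101-153598362, had folds of 9.29, 9.65, 8.54 and 9.20, with no coding start within 1 kb of its summit. TMPO (chr12:98909357-98944129, plus strand) had 1 p-JUN region, near its start, called in 1 soft library with a fold of 5.80 and in 1 stiff library with a fold of 6.55. Its H3K4me3 region, chr12:98908520-98910820, had folds of 8.88, 10.8, 9.81 and 9.80. LBR (chr1:225589204-225616627, minus strand) had 1 p-JUN region, intronic, chr1:225612486-225613467, with folds of 7.91 and 7.14 on soft and 8.66 and 10.7 on stiff. Its main H3K4me3 region, chr1:225614022-225615473, went the other way, with 6.96 and 6.77 on soft and 5.91 and 5.91 on stiff.

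**Figure D4:**
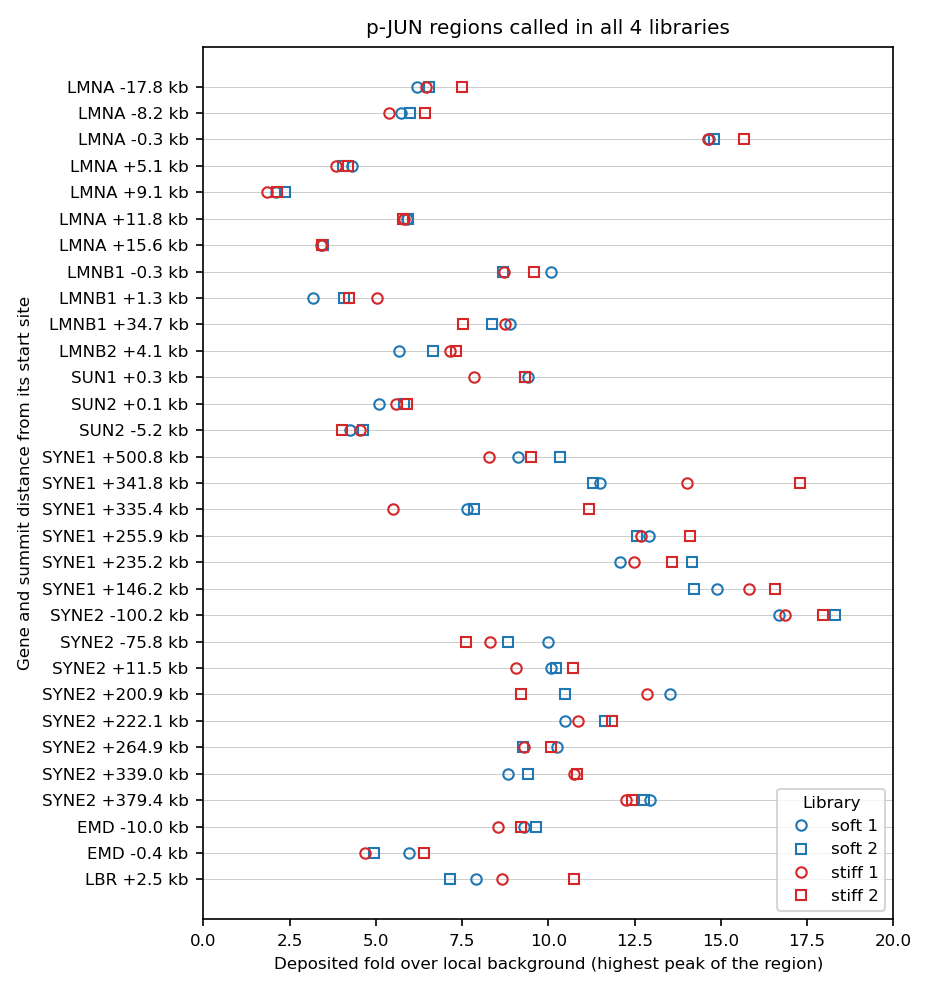
Deposited p-JUN fold over local background (x axis) in each library for the 31 regions called in all 4 libraries, named by gene and summit distance from its canonical start; blue is soft, red stiff, circles replicate 1 and squares replicate 2. The highest folds, 16.7 to 18.3, are in the SYNE2 upstream flank, and in most rows the colours mix.

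The difference between matrices was tested with limma on log2 fold, each library centred on its median over all regions called in all 4 libraries. For p-JUN, none of the 31 regions passed at an adjusted p under 0.05, and neither did any of the 40433 regions tested (0%). At an unadjusted p under 0.05 there were 3 of 31, 9.68% beside 9.33% of all regions. These were the SYNE1 intron region chr6:152616552-152616920 (log2 difference 0.41 ± 0.09 SE, adjusted p = 0.32), the LBR intron region (0.32 ± 0.12, adjusted p = 0.49) and the LMNA intron region chr1:156092543-156093678 (−0.21 ± 0.08, adjusted p = 0.52). The median difference over the 31 regions was −0.05, beside −0.01 over all. In 5 regions both centred stiff folds lay above both soft folds and in 9 below, where 18.5% and 21.2% of all shared regions did so.

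The fold divides the fragments at the summit by a background that the peak caller estimates, with options not given in the sources used here. This background differed between regions, but in soft replicate 1 it was the same 2.62 at regions of SYNE1, SYNE2 and TMPO. Tested in the same way on log2 fragments without division by the background, 11 of the 31 p-JUN regions passed, 4 higher and 7 lower on the stiff matrix. Of all regions, 6.16% passed as higher and 7.39% as lower. With a mean of at least 200 fragments these shares were 5.94% and 16.2%, and under 200 they were 6.2% and 5.82%. The 7 lower regions included both kinds. The count was 3 without soft replicate 2 and 7 without soft replicate 1. It was 8 and 9 without a stiff replicate. Both stiff values, scaled to a common median, lay below both soft values in 18 of the 31 regions and above in 6. Of all shared regions, 33.3% and 22.5% did so. In limma the spread of each region is drawn towards that of all regions, so an SE need not follow the region's own libraries. At the SYNE1 internal start, chr6:152622828-152623637, the scaled stiff fragments were 18.0 and 38.2 and the SE was 0.23. At the SYNE1 region chr6:152457482-152457864 they were 29.6 and 28.2 and the SE was 0.22. The small p-values on fragments lean on this pooled spread. The 31 regions had a median log2 difference in fragments of −0.19, beside −0.05 over all 40433 shared p-JUN regions. The 7364 shared p-JUN regions within 1 kb of any coding start had one of −0.19, against −0.02 farther away. These sets are unlike: of all 51 regions at these genes only 13 lay that near a coding start, so most of the 31 were farther away. The part of this start site difference in the values at these genes was not tested.

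The largest change was at the SYNE1 repeat. Soft libraries held 155 and 138 fragments at its summit and stiff ones 208 and 299, or 146.0, 152.3, 220.1 and 271.8 after scaling, without overlap of the matrices. The log2 difference was 0.71 ± 0.10 (SE, limma adjusted p = 4.51e-08), and it passed in all 6 alternatives run on fragments. The local background there rose as well, from 9.48 and 8.78 to 12.2 and 17.1 fragments, and the log2 difference in fold was 0.11 ± 0.07 (adjusted p = 0.67). How reads were placed among the copies of the repeat is not given in the sources used here, and its part in the change was not tested. The SYNE2 intron region chr14:64658101-64659036 also passed in all 6 alternatives run on fragments. It had 66 and 60 fragments in the soft and 101 and 109 in the stiff libraries (log2 difference 0.68 ± 0.15, adjusted p = 0.000751). Its local background rose too, from 6.598 and 5.473 in the soft to 8.505 and 9.162 in the stiff libraries. On fold this SYNE2 region did not pass (log2 difference 0.197 ± 0.104, limma adjusted p = 0.606). The LBR region had 77 and 55 fragments in the soft and 80 and 122 in the stiff libraries (0.55 ± 0.16, adjusted p = 0.00978), and the SYNE1 region with the TGACTCA shown above had 60 and 50 against 74 and 87 (0.49 ± 0.17, adjusted p = 0.0358). The LBR call was lost without soft replicate 2 (adjusted p = 0.27) and without stiff replicate 2 (0.22), and that of this SYNE1 region without any 1 of the 4 libraries (0.069 to 0.24).

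Fragments fell at 4 LMNA regions, 2 SYNE2 regions and the EMD upstream flank. On fold none of these passed, with log2 differences of −0.28 to −0.0045 (limma adjusted p of 0.52 to 0.99). The local background at the LMNA start was 82.2 and 73.4 in the soft libraries. In the stiff ones it was 63.9 and 70.8. It was also lower in both stiff libraries at chr1:156089323-156089862 and at both SYNE2 regions. The matrices overlapped in background at the other LMNA regions and at EMD. Whether the 4 LMNA regions changed independently was not tested. The LMNA start had 1217 and 1100 summit fragments in the soft and 949 and 1123 in the stiff libraries. These overlapped as counted, and after scaling they were 1147 and 1214 against 1004 and 1021, so that the call rests on the scaling (log2 difference −0.22 ± 0.06, adjusted p = 0.00268). With quantile normalization, 3 of the 4 LMNA decreases did not pass in limma, with adjusted p of 0.34 at the start, 0.068 at the internal start and 0.06 at the intronic chr1:156089323-156089862. The LMNA intron region shown above went from 224 and 218 fragments to 155 and 199 (−0.39 ± 0.10, adjusted p = 0.00444), with narrower or split peaks in the stiff libraries, and the internal LMNA start from 642 and 560 to 498 and 558 (−0.24 ± 0.07, adjusted p = 0.0084). The fourth LMNA region, the intronic chr1:156089323-156089862, went from 233 and 195 to 163 and 195 (−0.31 ± 0.10, adjusted p = 0.0251). At SYNE2, the region chr14:64243534-64244214 had the largest decrease, from 74 and 57 to 45 and 41 fragments (−0.65 ± 0.19, adjusted p = 0.0103), and the downstream flank region went from 248 and 223 to 177 and 189 (−0.42 ± 0.10, adjusted p = 0.00139). The EMD upstream flank region went from 297 and 274 to 195 and 269 (−0.37 ± 0.09, adjusted p = 0.00211). Without soft replicate 2 the decreases at EMD, at both SYNE2 regions and at 3 of the 4 LMNA regions no longer passed (adjusted p of 0.065 to 0.23), which left the LMNA start (0.041). The SYNE2 decrease at chr14:64243534-64244214 also failed without soft replicate 1 (0.21) or stiff replicate 2 (0.1), EMD without stiff replicate 1 (0.063), the internal LMNA start without soft replicate 1 (0.09), and the fourth LMNA region without soft replicate 1 (0.27) or stiff replicate 1 (0.054).

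**Figure D5:**
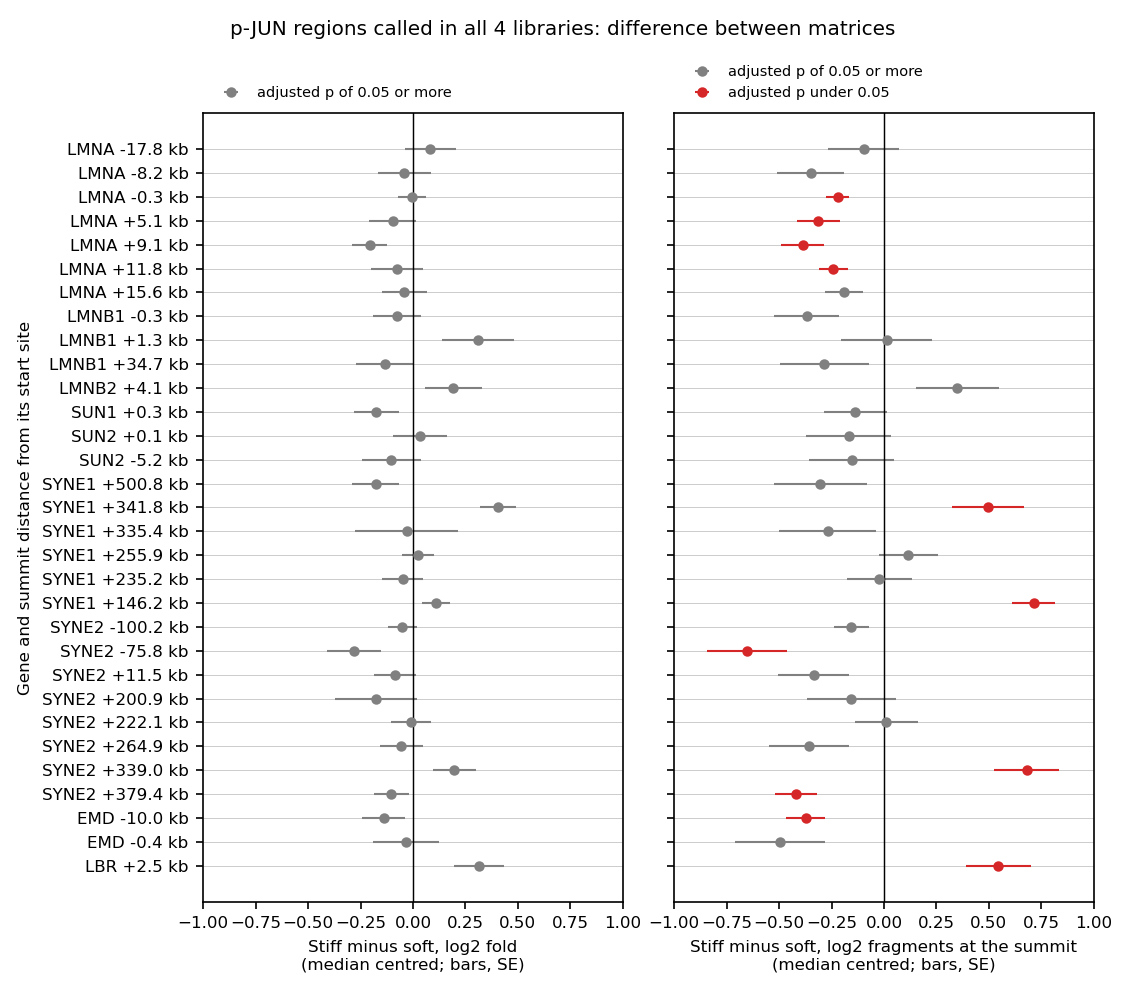
Stiff minus soft difference (points, with SE bars, from limma) in log2 fold (left) and log2 summit fragments (right) for the 31 p-JUN regions called in all 4 libraries, named by gene and summit distance from the canonical start. No region passes on fold and 11 (red) pass on fragments, with SYNE1, SYNE2 and LBR regions higher and LMNA, SYNE2 and EMD regions lower on the stiff matrix.

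For H3K4me3, 27 of the 32 regions (84.4%) were called in all 4 libraries, beside 78.9% of all regions. On fold, 0 of the 27 and 0% of all 16098 regions passed, and 3 of 27 had an unadjusted p under 0.05, beside 9.98% of all. These were the main LBR start region (−0.29 ± 0.09, limma adjusted p = 0.43), the internal LMNA start and the EMD start region, chrX:153606622-153608995 (−0.30 ± 0.12, adjusted p = 0.49), each lower on stiff. On fragments, none of the 27 passed either, beside 2.29% of all regions higher and 2.17% lower. In 3 regions both centred stiff folds lay above both soft folds and in 7 below, where 19.3% and 22.4% of all shared regions did so. For scaled fragments these were 10 and 8 regions, beside 23.4% and 28.4%.

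One H3K4me3 region, 1 of 32, had peaks in both stiff libraries but in no soft library, a pattern of 1.77% of all regions. It lay at the upstream alternative start of LMNA, chr1:156075961-156076790, with folds of 6.78 and 8.47 and 23 and 38 summit fragments. The soft H3K4me3 libraries had fewer fragments per summit than the stiff ones at large, and the part of that depth in the call was not tested. No region had the opposite pattern, beside 1.25% of all. The same start had p-JUN in all 4 libraries and a H3K27ac peak in the soft list alone, chr1:156076032-156076350, with a fold of 8.42 and 52 fragments (95% exact Poisson interval 38.8 to 68.2, counting error only). H3K4me3 and H3K27ac were thus called on opposite matrices there.

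H3K27ac calls differed between the matrices at these genes as they did over the genome, where the soft list was the longer, and had no replicates. Of the 24 regions, 13 were in both lists (54.1% of all regions), 8 in the soft list alone (35% of all) and 3 in the stiff list alone (10.9% of all), shares close to those of all regions. Beside the LMNA region, soft-only peaks lay at the starts of SUN1 (chr7:871889-872227, fold 5.62, 20 fragments), SUN2 (chr22:39151212-39151588, fold 6.53, 25 fragments) and TMPO (chr12:98909306-98909810, fold 7.0, 24 fragments). The others were intronic peaks of SYNE1 (chr6:152635254-152635530, fold 5.13) and SYNE2 (chr14:64320788-64321148, fold 7.99, and chr14:64336943-64337547, fold 5.91), and one in the downstream flank of EMD (chrX:153616641-153617313, fold 4.12). Stiff-only peaks lay in an LMNA intron (chr1:156066684-156067166, fold 5.54, 23 fragments), at the TIMM13 start in the last part of LMNB2 (chr19:2427366-2427914, fold 6.86) and in the EMD downstream flank (chrX:153617947-153618210, fold 3.80). The EMD pair fell in 1 H3K4me3 region that was called in all 4 libraries. With each list cut to the length of the shorter, soft-only regions were 4 and stiff-only 3.

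By window, H3K27ac counts were higher on soft at SUN1, SUN2, SYNE1, SYNE2, EMD and TMPO and higher on stiff at LMNB2, 6 and 1 of 9 genes with a peak, beside 43.7% and 11.1% of genes with one. In the 13 regions of both lists the fold was lower on stiff in 12, with a median log2 ratio of −0.25, beside 66.1% of all shared regions and a median of −0.11. Centred on that median, 10 of 13 were lower. The widest gap was at the LMNA start, chr1:156083815-156084511, with a fold of 6.98 and 60 fragments (interval 45.8 to 77.2) on soft against 4.51 and 40 fragments (28.6 to 54.5) on stiff. The intervals overlapped. The only higher one was in an LMNA intron, chr1:156099710-156100144, at 3.36 on soft and 3.86 on stiff. At the SYNE1 repeat the H3K27ac fragments were 20 on soft (interval 12.2 to 30.9) and 24 on stiff (15.4 to 35.7). These intervals overlapped, and the fold there was 8.95 on soft and 8.03 on stiff.

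Of the 51 p-JUN regions, 15 (29.4%) overlapped H3K4me3 in all libraries, beside 18.6% of all p-JUN regions. H3K27ac overlapped 18 (35.3%) in the soft list, beside 26.9%, and 15 (29.4%) in the stiff list, beside 20.1%. In these gene-centred windows, 13 regions (25.5%) lay within 1 kb of a coding start of any gene, beside 18% of all. TGACTCA was searched on both strands with its centre within 50 bp of the summit and was found in 14 of 51 regions (27.5%), beside 30.6% of all p-JUN regions. It was in 1 of the 12 start site regions and 13 of the other 39. The same split was not computed over all p-JUN regions, so it cannot be read as a trait of these genes. Taken anywhere in the region, the motif was in 27 of 51 (52.9%), beside 50.4%. The related site TGACGTCA, chosen after the data were seen, was within 50 bp of the summit in none of the 51, beside 0.733%. Shared regions with TGACTCA had a median of the mean folds of 9.64 (10 regions) and those without it 8.65 (21 regions). The 3 shared regions of highest fold, in SYNE2, SYNE1 and LMNA, had no TGACTCA within 50 bp of the summit.

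A list of 21 other nuclear envelope genes was counted in the same way. It held further LEM-domain, KASH, SUN and torsin pathway genes, the enzymes that process prelamin A, and BANF1, TMEM43, TMEM201, NEMP1 and NRM. H3K4me3 was at a start in all libraries in 17 of 21, without SYNE4, SUN3, SUN5 and NRM. p-JUN accompanied it in 10 of the 17. H3K27ac was there in both lists in 10 of 17 and in the soft list alone in 1, LEMD2. Of 29 shared p-JUN regions none passed on fold and 5 passed on fragments, all lower on stiff, and of 32 shared H3K4me3 regions none passed on fold and 2 passed on fragments, both higher. H3K27me3 peaks over the 21 genes summed to 3 and 5 on soft and 2 and 2 on stiff. Over all protein-coding genes they summed to 12475 and 6076 on soft and 4747 and 4744 on stiff, a fall of like size.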

How the data were processed

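CUT&Tag of p-JUN, H3K4me3, H3K27me3 (2 libraries per matrix) and H3K27ac (1 merged list per matrix) was analysed in 14 peak lists. The authors trimmed reads with TrimGalore, aligned them to hg19 using Bowtie2, used Picard for duplicates, and ran MACS2, whose version and options are not given in the sources used here. Each deposited list holds, per peak, a score, a fold ratio of the summit over the local background, and −log10 p and −log10 q; no scaling between lists was applied, so deeper libraries can hold more peaks. H3K27me3 peaks are broad, with values averaged over the peak and depth unknown.

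Peaks on 24 chromosomes were used. Fragments and background at narrow summits were solved from fold, taken as fragments plus 1 over background plus 1, and a Poisson p; within 0.01, 100% of summits in each narrow list came out whole. Genes and starts came from GENCODE 44 lifted to GRCh37; the marker PECAM1 was not analysed here. Peaks sharing 1 bp were merged; a region's fold per library is its highest. limma 3.58.1 (R 4.3.3) with trend and Benjamini-Hochberg adjustment was fitted over all regions called in all 4 libraries of a mark, with 2 against 2 libraries. Tested on simulated data with the same spread for every region, it recovered 200 of 200 changed p-JUN regions among 40433. The log2 change was 1 on normal noise, and there were 6 false calls. Real regions differ in spread, and on fold none passed although differences reached 1.16, so this recovery does not give the power in the real data. Changes under 1, as at all these genes, were not simulated. Genes, lists and tests were chosen with earlier results of these data known. All 10 genes were named, with their strongest and start site regions, regions of 1 matrix and those of smallest p. Alternatives changed the window, peak threshold, list length, libraries, scaling, variance trend, replicate block, measure and motif window.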

Additional observations from a re-analysis of the deposited data

How the results depend on the processing

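Most alternatives left the counts equal to the reported ones or within 1.5 times of them, many being 0 under both settings. Ratios were judged by the SD over pairs of libraries or, for H3K27ac, by a binomial interval, and motif shares by the SD over libraries. The number of p-JUN regions past the test at these genes rose from 0 to 11 with fragments instead of fold, and over all regions from 0 to 5478; for H3K4me3 it stayed at 0 of 27, with 0 and 718 over all regions. On fold, without soft replicate 1 or 2, 6 and 47 of all p-JUN regions passed. The cause was not tested. Leaving out 1 library each gave 0 p-JUN and 0 H3K4me3 regions on fold, 3 to 9 p-JUN regions on fragments (3 without soft replicate 2, 7 without soft replicate 1), 0 to 1 H3K4me3 regions on fragments, 1 to 3 stiff-only and 0 to 4 soft-only p-JUN regions, 1 to 2 stiff-only and 0 to 1 soft-only H3K4me3 regions, and a motif share of 22.9% to 31.9%. A pattern asked of fewer libraries is met more often. The p-JUN ratio went from −0.21 without stiff replicate 2 to 0.12 without stiff replicate 1. With −log10 q of at least 10, H3K27ac had 5 soft-only and 1 stiff-only regions, and with equal list length 4 soft-only. A motif window of 100 bp gave 37.3%.

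The replicate numbers did not pair the libraries: deviations of same-numbered libraries had correlations of 0.005 (p-JUN), −0.05 (H3K4me3) and 0.036 (H3K27me3). With the replicate block, log2 ratios of peak counts were −0.04 and 0.02, 0 regions of the 31 and of the 27 passed on fold, 41 of all p-JUN regions did, and 11 of the 31 passed on fragments. The tests on fragments with a block, quantile normalization (8 p-JUN regions) or a library left out were chosen after seeing the data. H3K27me3 had no peak at any of the genes, so its ratio could not be computed and no region could be tested. H3K27ac has no replicate check, and its fragments limit what a difference of 60 against 40 can show.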
